A study of Mus musculus with 4 samples.

Results

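The sirtuins are 7 enzymes of mouse cells, encoded by Sirt1 to Sirt7, that remove acetyl and other acyl groups from proteins and use up NAD+ in doing so. Their rows were taken from the gene column of the deposited tables: 7 genes of 55467, each present under 1 Ensembl ID, and all 7 passed the filter on low levels that left 13064 genes for testing. The levels were measured by RNA sequencing in primary astrocytes, glia that feed and support neurons, cultured from the cerebral cortex of mouse pups 1 to 3 days old. WT, with 2 libraries, stands for wild-type mice, and CD38 KO, with 2 libraries, for mice lacking CD38, a surface enzyme that breaks down NAD+. Cultures of both genotypes were grown for 14 days in medium with 10% serum, shaken for 12 h, replated and harvested 5 days later, and no other treatment is named. The labels give neither the strain, the deleted exons nor the number of pups or cultures behind a library. An effect of losing Cd38 and any other difference between the WT and CD38 KO cultures cannot be told apart, and p-values measure only the spread between libraries, which may be technical.

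Sirtuins differ in where they work. SIRT1, SIRT6 and SIRT7 are mainly nuclear and act on histones, transcription factors and ribosomal DNA, SIRT2 is mainly cytoplasmic and deacetylates alpha-tubulin, and SIRT3, SIRT4 and SIRT5 lie in mitochondria. Sirtuins and CD38 both consume NAD+, and the comparison of genotypes here asks whether sirtuin transcripts differ when Cd38 is lost. The deposited values are FPKM, fragments scaled to both transcript length and library size, so levels of different genes can be set side by side.

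Sequencing depth, estimated from the FPKM steps, ranged from 26595000 to 28912000 fragments. Cd38 stood at 3.13 and 3.45 FPKM in the WT libraries, against 0.0222 in both of CD38 KO, so all 4 carried the level their genotype label names. Astrocyte markers were high in both genotypes, with Glul, Gfap and Atp1b2 between 349 and 1700 FPKM. Of the 12 astrocyte markers 8 were called lower in CD38 KO and 2 higher, and their summed level was 5420 to 5440 FPKM in WT and 4400 to 4530 in CD38 KO. Markers of microglia and macrophages moved with genotype as well: 13 of 13 tested were higher in CD38 KO. Of these, Cx3cr1, Itgam and Tmem119 had WT means below 1 FPKM and passed the filter only through CD38 KO. P2ry12 and Mrc1 missed the filter. P2ry12 overlapped between genotypes (0.243 and 0.633 FPKM in WT, 0.528 and 0.606 in CD38 KO). Mrc1 was close to 0, at 0.0787 and 0.115 FPKM in WT and 0.258 and 0.218 in CD38 KO, and its difference was not tested. All 15 summed to 94.8 to 109 FPKM in WT and 659 to 740 in CD38 KO, mostly Lyz2, and none was at 0 in all libraries. Oligodendrocyte precursor markers summed to 163 to 170 FPKM in WT and 132 to 146 in CD38 KO (0 higher and 2 lower of 4 tested), and neuronal markers to 119 to 127 FPKM in WT and 114 in either CD38 KO library (1 higher and 1 lower of 4). Fibroblast markers summed to 42.6 to 56.2 FPKM in WT and 50.4 to 78.2 in CD38 KO (0 of 6 called), and ependymal markers to 117 to 122 FPKM in WT and 133 to 139 in CD38 KO (2 higher and 1 lower of 4). Limma called 8.0% of all tested genes higher and 6.35% lower. In all 4 fits that left out a library, 12 of the 13 microglia and macrophage calls held, as did both neuronal calls, but only 3 of the 8 lower astrocyte calls (Aldoc, Kcnj10 and S100b), neither of the 2 higher ones, 1 of the 3 ependymal calls (Foxj1) and 0 of the 2 precursor calls. Endothelial markers all missed the filter, with sums of at most 2.25 FPKM. In these bulk cultures fewer cells of a type and less RNA per cell cannot be told apart.

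Sirt2 was by far the most abundant sirtuin transcript and Sirt1 the scarcest. Averaged over the 4 libraries, Sirt2 stood at 102 FPKM, followed by Sirt3 at 27.6, Sirt7 at 22.6, Sirt4 at 15.6, Sirt5 at 12.7, Sirt6 at 7.99 and Sirt1 at 2.88 FPKM, a ratio of 35.4 between Sirt2 and Sirt1. In 5 of the 6 pairs of neighbours in this order the ranges of the 4 libraries did not overlap. The exception was Sirt3 and Sirt7, since Sirt7 in WT 2 (24.5 FPKM) was above Sirt3 in both WT libraries. Sirt4 and Sirt5 came close, with the lowest Sirt4 value at 13.4 FPKM and the highest Sirt5 value at 13.0 FPKM. The order was the same in WT 1 and both CD38 KO libraries, and WT 2 differed only in that Sirt7 and Sirt3 changed places.

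Summed FPKM of all 7 genes was 181 and 190 in WT and 200 and 195 in CD38 KO. Sirt2 alone made up 52.3% to 55.3% of it, the 3 mitochondrial sirtuins 27.5% and 28.6% in WT and 30.0% and 30.6% in CD38 KO, and the 3 nuclear ones 15.9% to 19.2%. The cytoplasmic and nuclear shares overlapped between the genotypes, and the mitochondrial share did not. Of its 3 members only Sirt3 lay apart between genotypes, while Sirt4 and Sirt5 overlapped. Such gaps were common, at 59.9% of all tested genes. Within the mitochondrial group Sirt3 made up 46.9% and 44.5% in WT and 53.7% and 51.5% in CD38 KO.

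**Figure D1:**
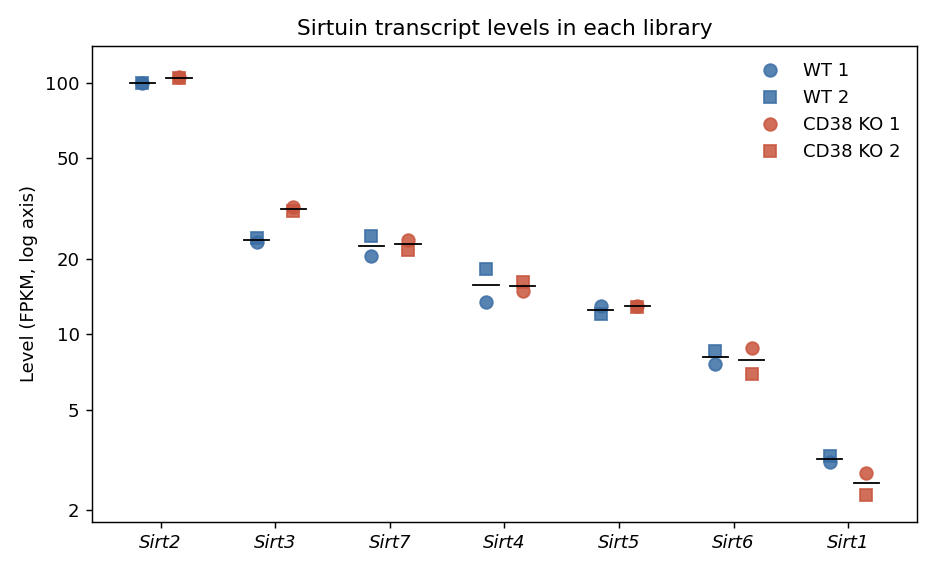
Level of each sirtuin transcript in FPKM on a log axis, ordered by mean, with 1 symbol for each library (blue, WT; red, CD38 KO) and a black line at the mean of the 2 libraries of a genotype. Sirt2 lies near 100 FPKM in all 4 libraries and Sirt1 near 3, and Sirt3, the only member called, shows a gap between genotypes, 23.3 and 24.2 against 32.2 and 30.8 FPKM.

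Between the genotypes, 1 of the 7 sirtuins was called, Sirt3, at an adjusted p under 0.05 by limma on log2(FPKM + 1). That is 14.3% of the members, beside 14.4% of all tested genes that were called in either direction, so the number of called sirtuins was close to the background. At an unadjusted p under 0.05 the count was likewise 1 of 7, beside 30.3% of all tested genes. The libraries of the 2 genotypes did not overlap for 3 of the 7, Sirt1, Sirt2 and Sirt3, or 42.9%, beside 59.9% of all tested genes. The median log2 change of the 7 was 0.02, against 0.00 over all tested genes, with 4 values above 0 and 3 below.

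Sirt3 encodes the main deacetylase of the mitochondrial matrix. Its gene (ENSMUSG00000025486) lies on the minus strand of GRCm38 chromosome 7, from 140863666 to 140882309. Sirt3 was at 23.3 FPKM in WT 1 and 24.2 in WT 2, and at 32.2 in CD38 KO 1 and 30.8 in CD38 KO 2. Both CD38 KO libraries thus lay above both WT libraries, and the gap between genotypes was several times the gap within either. Mean FPKM was 23.7 ± 0.602 in WT and rose 1.33-fold to 31.5 ± 1.02 in CD38 KO (SD, n = 2 for either), and limma gave a log2 change of 0.39 (SE 0.053, 95% confidence interval 0.26 to 0.53, adjusted p = 0.00838). Changes of at least this size in either direction were seen in 11.8% of tested genes, and 658 of the 1045 genes called higher had a larger one. The call ended in 3 of the 4 fits that left out a library, with adjusted p = 0.0523 without WT 1, 0.0804 without CD38 KO 1 and 0.0523 without CD38 KO 2, while the log2 change stayed between 0.36 and 0.43. Sirt3 moved in the same direction as the microglia and macrophage markers given above, whose part in its change was not tested.

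**Figure D2:**
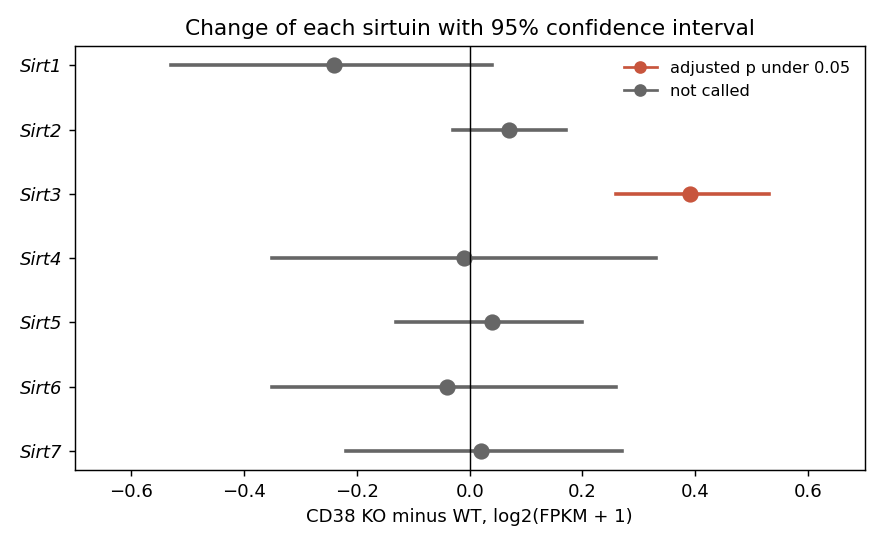
Log2 change of each sirtuin, CD38 KO minus WT on the log2(FPKM + 1) scale, with its 95% confidence interval from limma, in red where the adjusted p was under 0.05. The interval of Sirt3 (0.26 to 0.53) lies above 0 and those of the other 6 genes include 0.

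The neighbours of Sirt3 bear on how this value can be read, because its annotated span overlaps 2 genes on the other strand. Psmd13, which encodes a subunit of the proteasome's regulatory particle, starts head to head with Sirt3 and overlaps it by 342 bases in GENCODE. The RefSeq start of Psmd13 lies outside Sirt3. Ric8a, a chaperone of G protein alpha subunits, overlaps the far end of Sirt3 by 707 bases. The libraries are stranded, but whether counting used the strand is not given in the sources used here, and the locus printed in the files for Sirt3 takes in both neighbours. Psmd13 was at 78.5 and 73.9 FPKM in WT, against 76.7 and 82.0 in CD38 KO, and Ric8a at 28.1 and 24.1 in WT and at 25.5 and 25.2 in CD38 KO. Both overlapped between genotypes and neither was called, with a log2 change of 0.06 (95% confidence interval -0.08 to 0.20) for Psmd13 and -0.04 (-0.24 to 0.16) for Ric8a. The ratio of Sirt3 to Psmd13 was 0.297 and 0.327 in WT and 0.420 and 0.375 in CD38 KO, values that do not overlap. An exact two-sided permutation test of the ratio gave p = 0.333, the smallest that 2 libraries against 2 can give. Values that do not overlap can give no other result, so the test adds nothing to them.

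The stretch between annotated starts of both genes is shown because Sirt3 was called and Psmd13 was not. It covers the 98 bases between the lower of 2 RefSeq starts of Sirt3, at 140881869, and the outermost GENCODE start of Psmd13, at 140881968; RefSeq starts Psmd13 farther on, at 140882394. RefSeq's build is GRCm38.p6, and the sequence is read 5′ to 3′ on the minus strand, that of Sirt3, with each GGGCGG (GC box, searched on both strands) in capitals. The other RefSeq start of Sirt3, at 140882309, lies upstream of these bases. Whether they are exon or intron in transcripts from that start was not checked.
Sirt3 to Psmd13, chr7:140881870-140881967: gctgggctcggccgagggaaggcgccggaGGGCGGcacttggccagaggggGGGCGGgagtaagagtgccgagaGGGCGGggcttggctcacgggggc
It holds 3 GC boxes and is 76.5% G and C. The 300-base window around the other RefSeq start of Sirt3, at 140882309, holds no GC box. FPKM per gene sums all starts, so which start the added Sirt3 fragments came from cannot be read from these files.

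**Figure D3:**
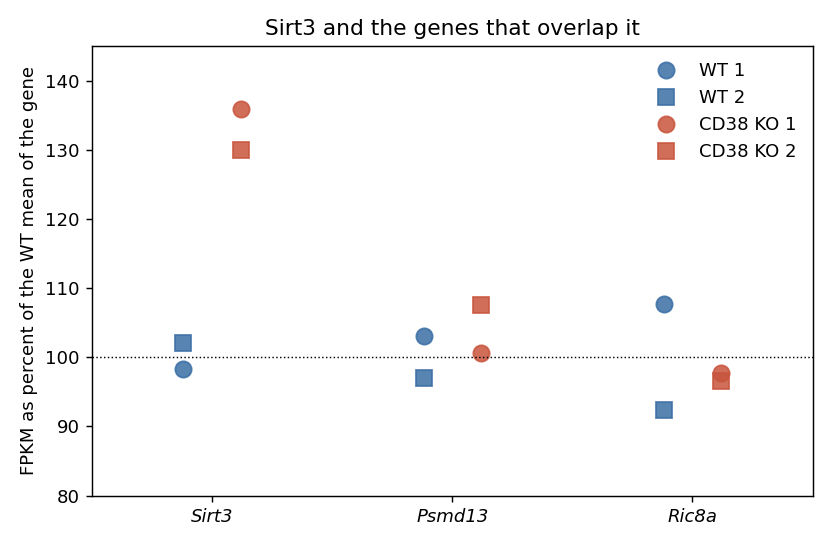
Level of Sirt3, Psmd13 and Ric8a in each library as a percentage of the gene's own WT mean (blue, WT; red, CD38 KO; the dotted line marks 100). Sirt3 is apart between genotypes, 23.3 and 24.2 FPKM against 32.2 and 30.8, and the WT and CD38 KO values of the 2 overlapping genes are intermixed.

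The profiles most like that of Sirt3 over the 4 libraries, by the distance between log2(FPKM + 1) values centred on each gene's mean, were those of Dnajc15, Dennd2c and Kctd1 among 11741 protein-coding genes searched. Dnajc15, which encodes a co-chaperone of the mitochondrial inner membrane, was at 27.9 and 29.1 FPKM in WT, against 38.2 and 36.1 FPKM in CD38 KO, at a distance of 0.0251. Dennd2c was at 0.752, 0.849, 1.40 and 1.27 FPKM in WT 1, WT 2, CD38 KO 1 and CD38 KO 2, and Kctd1 at 21.1, 21.6, 28.7 and 28.2 FPKM. With a WT mean of 0.801 FPKM, Dennd2c passed the filter only through CD38 KO, and it was not called. With 4 libraries such likeness is common, and 154 genes lay within a distance of 0.1 of Sirt3.

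The other mitochondrial sirtuins showed no such gap. Sirt4 (ENSMUSG00000029524, chromosome 5, 115478010 to 115484725), whose product removes lipoyl and other acyl groups from metabolic enzymes, was at 13.4 and 18.1 FPKM in WT, against 14.9 and 16.1 in CD38 KO. Both CD38 KO values fell between the WT values, which differed 1.35-fold from each other. Its log2 change was -0.01, with a 95% confidence interval of -0.35 to 0.33 (SE 0.14, adjusted p = 0.977). That interval overlaps the one of Sirt3 (0.26 to 0.53), and the difference between Sirt3 and Sirt4 was not tested. Sirt4 is the member on the chromosome of Cd38, 71.6 Mb away from it.

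Sirt5 (ENSMUSG00000054021, chromosome 13, 43365496 to 43395203) encodes a desuccinylase and demalonylase. It was at 13.0 and 12.0 FPKM in WT, against 12.9 and 12.8 in CD38 KO, with both CD38 KO libraries again inside the WT range. The log2 change was 0.04 (SE 0.065, 95% confidence interval -0.13 to 0.20, adjusted p = 0.753). The interval lies below the 0.26 that bounds the change of Sirt3 from below, although the difference between the 2 genes was not tested.

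Sirt2 (ENSMUSG00000015149, chromosome 7, 28766735 to 28788661) hardly varied between libraries of a genotype. It was at 99.7 and 99.3 FPKM in WT, against 105 and 104 in CD38 KO, so the genotypes did not overlap, but by a margin of only 1.05-fold between their means. The log2 change of 0.07 was not called (SE 0.039, 95% confidence interval -0.03 to 0.17, adjusted p = 0.304). Nfkbib, which encodes an inhibitor of NF-kB and starts head to head with Sirt2 while overlapping it by 778 bases, was at 17.8 and 19.3 FPKM in WT, against 18.1 and 16.1 in CD38 KO.

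In the brain SIRT2 is best known from oligodendrocytes, where it is part of myelin, so markers of those cells were read beside it. Of 10 oligodendrocyte markers 4 passed the filter and none was called, and their summed level was at least 37.4 FPKM in WT and 34.7 to 36.5 FPKM in CD38 KO. Most of that sum was Cnp, at 28.4 to 30.6 FPKM. Among the defining myelin genes, Mbp was at 0.932 to 2.23 FPKM, Mog at or below 0.115, and Opalin at 0 in all 4 libraries. The part of oligodendrocytes in the Sirt2 level was not tested.

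Sirt1 (ENSMUSG00000020063, chromosome 10, 63319005 to 63381704), the best studied sirtuin, deacetylates p53, FOXO factors and PGC-1alpha. It was at 3.11 and 3.29 FPKM in WT, against 2.81 and 2.30 in CD38 KO. Both CD38 KO libraries lay below both WT libraries, but the CD38 KO libraries differed from each other 1.22-fold, about as much as the genotypes did (3.20 ± 0.127 against 2.56 ± 0.361 FPKM, SD, n = 2 each, 1.25-fold). Limma gave a log2 change of -0.24 (SE 0.11, 95% confidence interval -0.53 to 0.04, adjusted p = 0.229). Depending on which coding transcript is taken, the Sirt1 values stand for about 211 to 283 fragments in CD38 KO 2 and 293 to 393 in WT 2. Sirt2 had 3764 or more in every library, and Sirt6 as few as 144 in CD38 KO 2 by its shortest coding transcript. Counting error thus bears on Sirt1 and Sirt6 more than on Sirt2, and its part in the spread of Sirt1 was not tested. Dnajc12, a co-chaperone gene, starts head to head with the outermost GENCODE start of Sirt1 at a distance of 739 bases, while the RefSeq start of Sirt1 lies inside the GENCODE span. Dnajc12 was at 3.21 and 4.42 FPKM in WT, against 4.47 and 5.81 in CD38 KO, and was not called (log2 change 0.35, adjusted p = 0.222).

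Sirt6 (ENSMUSG00000034748, chromosome 10, 81621785 to 81627797), a histone H3 deacetylase with roles in DNA repair and in holding down glycolytic genes, was at 7.59 and 8.62 FPKM in WT, against 8.82 and 6.93 in CD38 KO. The CD38 KO libraries held both the highest and the lowest value. The log2 change was -0.04 (SE 0.12, 95% confidence interval -0.35 to 0.26, adjusted p = 0.853). Its head-to-head neighbour Ankrd24 was at 13.3 and 18.0 FPKM in WT, against 17.8 and 13.3 in CD38 KO, and like Sirt6 was higher in WT 2 and CD38 KO 1 than in the other two.

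Sirt7 (ENSMUSG00000025138, chromosome 11, 120618372 to 120625240), whose product works at ribosomal DNA in the nucleolus, was at 20.4 and 24.5 FPKM in WT, against 23.8 and 21.7 in CD38 KO. As with Sirt4, both CD38 KO libraries lay inside the WT range. The log2 change was 0.02 (SE 0.099, 95% confidence interval -0.22 to 0.27, adjusted p = 0.898). Its overlapping neighbour Mafg, a small Maf transcription factor on the same strand, was at 53.6 and 60.2 FPKM in WT, against 52.6 and 54.1 in CD38 KO and, like Sirt7, was higher in WT 2 than in WT 1. Within WT, 5 of the 7 sirtuins were higher in WT 2 than in WT 1, and Sirt2 and Sirt5 were lower. The antisense gene Gm16145 within Sirt1 and Mir6936 within Sirt7 were listed at 0 in all 4 libraries.

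The 300 bases around the RefSeq starts (250 before and 50 after, 9 windows for the 7 genes) were searched on both strands for 4 short motifs. GGGCGG was found in 6 of the 9 windows, with 7 matches in that of Sirt1, and is present in 35.7% of all 32851 promoter windows. The E-box CACGTG occurred only in the Sirt1 window (2 matches; 7.15% of all windows hold it), CCAAT in 3 of the 9, 1 each of Sirt2, Sirt3 and Sirt5 (37.4%), and TATAAA in none (13.6%). G and C made up 79.0% of the Sirt1 window, the richest of the 9, against a median of 52.7% over all windows. A match is a run of letters, not a bound site.

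Genes that act with the sirtuins were taken as 8 lists of partners, substrates, NAD+ metabolism and opposing enzymes. Over the 114 genes of these lists that were tested, 12 were called, or 10.5%, beside the background of 14.4%. Among the 12 is Cd38, the gene lost in CD38 KO, whose call follows from the genotype and which passed the filter through WT alone. Of these 12, Srebf1, Tuba4a and Cd38 were called in all 4 fits without a library, Tuba1b in 2 of them and the remaining 8 in none. The rise of the microglia and macrophage markers accompanied all of these changes, and its part in them was not tested.

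Substrates of SIRT2 were the list with the largest share of calls: 4 of 8 tested members fell and none rose, where 6.35% of all tested genes were called lower. The list's median log2 change was -0.25, against 0.00 over all tested genes. Tuba4a, an alpha-tubulin, fell from 80.4 and 82.5 FPKM to 59.3 and 57.2 FPKM (log2 change -0.48, adjusted p = 0.00248). The alpha-tubulins Tuba1b and Tuba1a fell as well, to means of 208 and 901 FPKM from 260 and 1040 FPKM, and so did Kmt5a, a histone H4 methyltransferase, from 45.2 to 36.9 FPKM (adjusted p of 0.00822 to 0.023 for these 3). Alpha-tubulin genes are near-identical over much of their coding sequence, so fragments can be split among them in ways that depend on the counting. Without 1 library, 1 or 2 members of the list were called, and 1 with no filter on low levels.

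Among 25 tested regulators and targets of SIRT1, 1 rose and 1 fell, with a median log2 change of -0.02. Srebf1, the transcription factor SREBP-1 of fatty acid synthesis, fell from 217 and 228 FPKM to 144 and 129 FPKM (log2 change -0.70, SE 0.063, adjusted p = 0.00208). Ppargc1a, encoding PGC-1alpha, a coactivator of mitochondrial genes, rose from 23.7 FPKM in each WT library to 31.8 and 28.4 FPKM, a call that ended in all 4 fits without a library (adjusted p up to 0.138).

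Of 19 tested mitochondrial substrates of SIRT3, SIRT4 and SIRT5, 2 were higher, 1 was lower and 16 were not called, with a median log2 change of 0.05. Dlat, the lipoyl-bearing subunit of pyruvate dehydrogenase, rose from 48.4 and 46.9 FPKM to 55.0 and 54.9 FPKM, and Atp5a1, an ATP synthase subunit, from 323 and 331 FPKM to 367 and 365 FPKM. Acss1, a mitochondrial acetyl-CoA synthetase that SIRT3 activates, fell from 18.3 and 19.4 FPKM to 15.3 and 15.9 FPKM. All 3 had adjusted p of 0.0386 to 0.0486 and lost their call in every fit without a library (up to 0.203), while Sod2, the mitochondrial superoxide dismutase, was called in 1 of those fits, without CD38 KO 1 (0.0487). In the list of 17 partners and targets of SIRT6 and SIRT7 the median log2 change was -0.03. Pdk4, a kinase that shuts off pyruvate dehydrogenase, was alone in being called and rose from 25.4 and 23.2 FPKM to 29.2 and 31.6 FPKM, again a call that ended in all 4 fits without a library (up to 0.176).

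Other genes of NAD+ metabolism were read as consumers and suppliers. Of 12 tested NAD+ consumers, which include poly-ADP-ribose polymerases and tankyrases, only Cd38, the lost gene itself, was called (log2 change -2.07, adjusted p = 0.000575). Its relative Bst1 did not pass the filter. Of 11 tested genes of NAD+ supply 1 was called, and their median log2 change was 0.02. Nmnat2, which encodes an NAD+-forming enzyme of the cytoplasm, rose from 3.27 and 3.14 FPKM to 4.92 and 5.28 FPKM (adjusted p = 0.0161). Its call ended in all 4 fits without a library, where the log2 change was 0.49 to 0.58. Nampt, the rate-limiting enzyme of the NAD+ salvage pathway, was at 61.5 and 59.1 FPKM in WT, against 53.0 and 54.6 in CD38 KO, and was not called (log2 change -0.16, adjusted p = 0.0772).

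Deacetylases of the other, zinc-dependent kind and the acetyltransferases that oppose both served as a comparison. Limma called 0 of 11 zinc-dependent histone deacetylases and 0 of 11 acetyltransferases, and 1 of each list had an unadjusted p under 0.05, beside the 30.3% of all tested genes. Without WT 1, Hdac7 was called (adjusted p = 0.0236). Median log2 changes of the lists were -0.05 and -0.10. The members of smallest p were Hdac6, which like SIRT2 deacetylates tubulin (15.7 and 16.1 FPKM in WT, 14.2 and 13.1 in CD38 KO, adjusted p = 0.0929), Hdac10 (adjusted p = 0.19), Kat6b (0.163) and Kat2a (0.167). The most abundant zinc-dependent deacetylase, Hdac3, had a mean of 45.9 FPKM in WT and 44.1 FPKM in CD38 KO, which is below Sirt2 and above Sirt3 on the same per-length scale.

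**Figure D4:**
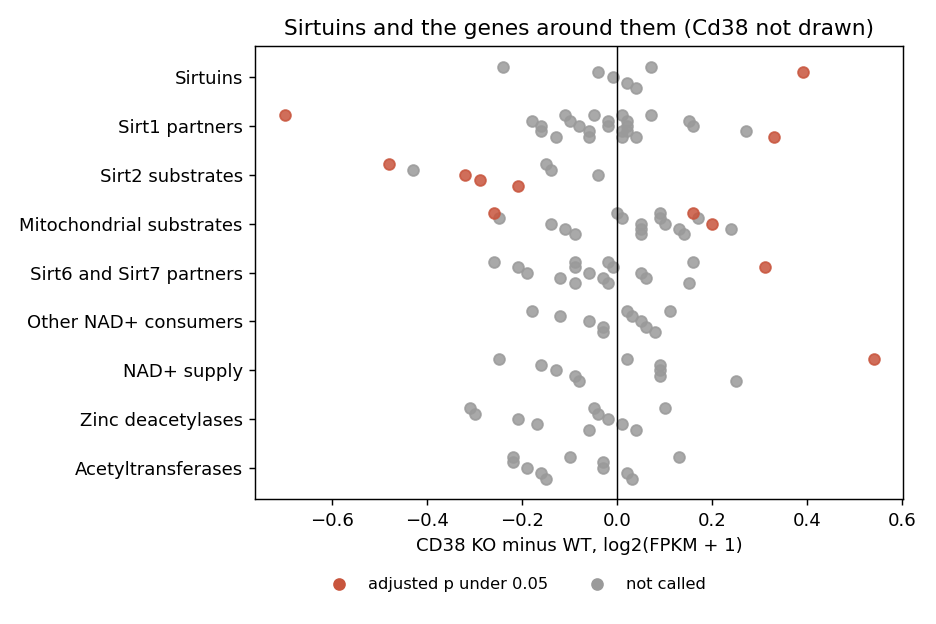
Log2 change, CD38 KO minus WT on the log2(FPKM + 1) scale, of each tested gene of the sirtuin family and of the 8 lists, with called genes in red; Cd38 is left out because its change of -2.07 lies far outside the axis. Red points lie on the side of lower values in the SIRT2 substrate list, and no gene is red among the zinc-dependent deacetylases and the acetyltransferases.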

How the data were processed

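RNA of 4 astrocyte libraries was selected for polyA and made into stranded libraries, per the labels' protocols. Tools listed by the submitters' processing notes, without roles, are Cufflinks 2.2.1, STAR 2.7.0f and bcl2fastq 2.17, and the build is GRCm38. FPKM per gene is what the authors deposited, per the file headers. The annotation release, the strand setting of counting and any scaling step were not given in the sources used here. Gene coordinates are those of GENCODE M21 (55226 of 55467 IDs matched) and promoter sequences from RefSeq on GRCm38.p6 (7 of 7 sirtuins matched).

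The test took log2(FPKM + 1) of the 13064 genes whose mean was 1 FPKM or more and fitted genotype alone with limma 3.58.1 (R 4.3.3), using trended empirical Bayes moderation. P-values are two-sided, adjusted by Benjamini-Hochberg over these 13064 and called under 0.05. The fit was also run on simulated data with independent noise between libraries and few changed genes. That setting differs from these data, where 1875 genes were called, so it does not gauge the error rate here. Fold changes are ratios of mean FPKM. Total fragments were estimated from steps of 1 fragment in 17748 genes with 1 transcript longer than 600 bases, where 91.5% to 92.4% of values below 10 fragments fell within 0.1 of a whole number. These are estimates, not read counts. Python 3.11.15 served for other steps.

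The members and lists were chosen with earlier results of these data known. All sirtuins and Cd38 were named, with up to 4 called members of smallest p of each list, or the 2 of smallest p where none was called, and the neighbours that overlap a sirtuin or start head to head within 1000 bases. For called sirtuins the 3 nearest profiles were named, and for markers up to 3 of highest mean and those near 0. Nampt, Bst1, Sod2, Hdac7, Hdac3 and the markers named for calls held without a library were picked outside this rule, after their values were seen. For 113 symbols on more than 1 ID the ID of highest mean was used. Alternatives were other added values, filters, scalings, moderation, a replicate block and leaving out each library.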

Additional observations from a re-analysis of the deposited data

How the results depend on the processing

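Sirt3 was higher in CD38 KO under 13 other settings and was called in 10 of them; its log2 changes without 1 library ran from 0.36 to 0.43. In those 4 fits the number of sirtuins called was 0 or 1, and in the other settings it was 1. No other sirtuin was called under these settings (adjusted p of 0.141 or more). The sign of 4 genes turned: without 1 library log2 changes ran from -0.21 to 0.19 for Sirt4, -0.02 to 0.09 for Sirt5, -0.20 to 0.11 for Sirt6 and -0.10 to 0.15 for Sirt7 (to positive for Sirt4, 0.05 without CD38 KO 1 and 0.19 without WT 2, and for Sirt6, 0.11 without CD38 KO 2 and 0.04 without WT 2; to negative for Sirt5, -0.02 without WT 2, and for Sirt7, -0.04 without CD38 KO 1 and -0.10 without WT 1). Sirt1 was not tested with a filter at 5 FPKM, which it misses. Over all genes 1875 were called, 742 with no filter, where 26654 genes are tested, and 632 to 899 without 1 library. Called members of the 8 lists numbered 12, against 3 with no filter, 6 without trend and 4 in each fit without a library. Those fits take the spread of a genotype left with 1 library from the genotype that kept both. The order of sirtuin levels kept 5 of 6 pairs apart without any 1 library.

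Replicate numbers are shared between genotypes, but nothing says that they pair cultures, and same-numbered libraries deviated from their group means with a correlation of -0.161 over genes. With the replicate block 1037 genes, 5 list members and 1 sirtuin (Sirt3, adjusted p = 0.0375) were called. With the numbers crossed, an alternative chosen after seeing the data, the counts were 1961, 10 and 1.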
